A study of Mus musculus with 27 samples.

Results

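The ligands, receptors and coreceptors of the VEGF family are the 9 genes Vegfa, Vegfb, Vegfc, Pgf, Kdr, Flt1, Flt4, Nrp1 and Nrp2. Their probes were found through the RefSeq accession printed for each probe, which gave 12 probes among 37208 genes or transcripts on the array, 20145 of them with a gene symbol. Vegfa, Kdr and Nrp2 had 2 probes each and the other 6 genes had 1 each. RNA came from mouse embryonic stem cells of the A2lox type, all of which carried a FLAG-tagged dominant-negative FOS (dnFOS) at the Hprt locus under a promoter that DOX switches on. The dnFOS peptide dimerises with JUN proteins and keeps them off DNA, and the study asks what it does to the routes from the hemangioblast to muscle and to blood. FLK1+ cells were purified from embryoid bodies and were measured fresh (FLK1+), after 5 h (FLK1+ 5h) and after 24 h of blast culture (d1 BC). At 48 h the culture was sorted into vascular smooth muscle (SM) cells, early hemogenic endothelium (HE1, KIT+TIE2+CD41-), late hemogenic endothelium (HE2, KIT+TIE2+CD41+) and hematopoietic progenitors (HP, KIT+TIE2-CD41+). All groups other than FLK1+ had a partner grown with 1 µg per ml DOX. There were 27 arrays in 13 groups, with 3 arrays of untreated SM and 2 of each other group. Clones of the line were picked after transfection, DOX itself was present only in cells that also made dnFOS, and blast culture medium contained VEGF, so that all cells but the fresh FLK1+ cells had met added ligand.

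VEGF ligands are secreted dimers that bind receptor tyrosine kinases on vascular cells. VEGFA binds FLT1 and KDR (also called FLK1), VEGFB and PGF bind FLT1, and VEGFC binds FLT4 and, once processed, KDR. KDR carries most of the signal for endothelial growth and is needed for the first blood and vessel cells of the embryo, FLT1 binds VEGFA tightly and holds it back, FLT4 is best known from lymphatic vessels, and NRP1 and NRP2 are coreceptors shared with semaphorins. Since FLK1 was the antigen by which the starting cells were purified, Kdr in FLK1+ cells had been selected for and its level there was no independent finding.

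On GRCm38.p6, Vegfa lay at chr17:46016993-46032377, Vegfb at chr19:6982472-6987651, Vegfc at chr8:54077532-54186454 and Pgf at chr12:85166637-85177785. Kdr lay at chr5:75932827-75979072, Flt1 at chr5:147561604-147726438 and Flt4 at chr11:49609679-49652739. Nrp1 lay at chr8:128358591-128505476 and Nrp2 at chr1:62703317-62818692. Because dnFOS acts on AP-1, the promoters of the family were read for its motif and for 3 others. The RefSeq table held 11 promoters of the 9 genes, each 300 bases long (250 before and 50 after the start of transcription). The AP-1 letters TGANTCA, searched on both strands, stood in 7.81% of all 32851 promoters and in 0 of the 11. The TEAD letters GGAATG stood in 14.7% of all promoters and in 0 of the 11, the HIF letters ACGTG in 19.6% and in 1, and the GATA letters AGATAA in 11.2% and in 1. Both matches lay in Vegfa promoters, from base -211 to -207 of the first on the opposite strand and from base -182 to -177 of the second on the strand of the gene. The first Vegfa promoter lay inside the Vegfa locus, and both Pgf promoters and those of Kdr, Flt1 and Nrp1 also lay inside the loci of their genes. A match is a description of letters, and its absence here covers this window alone. The 250 bases before each start are shown for the 4 genes whose levels the results below turn on (Vegfa and Pgf have 2 promoters each in the table), with the HIF and GATA letters in capitals.
Vegfa promoter 1, chr17:46025164-46025413, minus strand: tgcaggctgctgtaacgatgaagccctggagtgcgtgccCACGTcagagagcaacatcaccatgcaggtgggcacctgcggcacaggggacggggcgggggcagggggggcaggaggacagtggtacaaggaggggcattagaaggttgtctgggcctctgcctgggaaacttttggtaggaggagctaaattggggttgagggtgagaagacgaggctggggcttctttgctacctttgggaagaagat
Vegfa promoter 2, chr17:46032378-46032627, minus strand: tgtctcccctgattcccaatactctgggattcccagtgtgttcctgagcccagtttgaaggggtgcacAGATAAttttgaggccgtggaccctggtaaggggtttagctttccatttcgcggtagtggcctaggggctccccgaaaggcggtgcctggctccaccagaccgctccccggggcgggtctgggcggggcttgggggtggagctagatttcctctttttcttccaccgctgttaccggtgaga
Pgf promoter 1, chr12:85175983-85176232, minus strand: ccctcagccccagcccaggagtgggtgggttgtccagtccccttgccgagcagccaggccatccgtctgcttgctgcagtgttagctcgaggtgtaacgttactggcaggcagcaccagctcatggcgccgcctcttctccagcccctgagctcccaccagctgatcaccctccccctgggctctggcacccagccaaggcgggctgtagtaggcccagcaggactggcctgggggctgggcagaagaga
Pgf promoter 2, chr12:85177314-85177563, minus strand: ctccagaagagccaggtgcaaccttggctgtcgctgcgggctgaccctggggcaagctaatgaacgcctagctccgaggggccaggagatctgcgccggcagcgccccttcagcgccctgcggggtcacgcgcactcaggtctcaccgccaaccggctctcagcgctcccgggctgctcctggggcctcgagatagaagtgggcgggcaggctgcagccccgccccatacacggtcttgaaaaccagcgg
Kdr promoter, chr5:75978456-75978705, minus strand: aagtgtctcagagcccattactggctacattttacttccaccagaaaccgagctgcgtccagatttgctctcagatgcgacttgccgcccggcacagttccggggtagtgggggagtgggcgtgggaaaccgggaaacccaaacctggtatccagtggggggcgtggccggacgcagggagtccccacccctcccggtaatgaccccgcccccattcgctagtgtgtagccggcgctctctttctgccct
Nrp2 promoter, chr1:62703067-62703316, plus strand: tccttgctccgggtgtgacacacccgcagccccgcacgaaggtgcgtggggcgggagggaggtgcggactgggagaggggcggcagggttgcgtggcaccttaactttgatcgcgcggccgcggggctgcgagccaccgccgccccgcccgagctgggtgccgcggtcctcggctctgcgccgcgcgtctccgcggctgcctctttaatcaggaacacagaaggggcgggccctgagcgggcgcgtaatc

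A level is a probe's log2 signal after subtracting the 75th percentile of its array, so that a level of 0 lies at that percentile, and levels of different probes are not compared. Replicates within a group correlated with r from 0.922 to 0.974 over genes. The sources used here do not say whether replicates were separate cultures, so p-values measure the spread between these arrays. Probes well above background made up 46.9% to 89.6% of the array, and the highest share was that of SM replicate 2. SM replicate 2 and SM DOX replicate 2 stood apart from the other SM arrays: the mean level of 8 endothelial markers was 1.31 and 1.33 on them, against -1.74, -1.31 and -1.35 on the other 3. Cdh5, the cadherin of endothelial junctions, was at 4.34 and 4.74 on those arrays and between -1.38 and -0.41 on the others. The same 8 markers averaged 3.47 and 3.60 in HE1, 2.31 and 3.05 in HE2 and 1.33 and 0.81 in HP, while 8 hematopoietic markers averaged -0.91 and -0.64 in HE1 and 3.71 and 3.68 in HP. Hprt, whose locus holds the cassette, was higher on every DOX array than on every untreated array in all 6 populations, by 1.41 to 3.62 on the log2 scale. In bulk RNA, fewer cells of a type and less RNA per cell cannot be told apart.

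**Figure D1:**
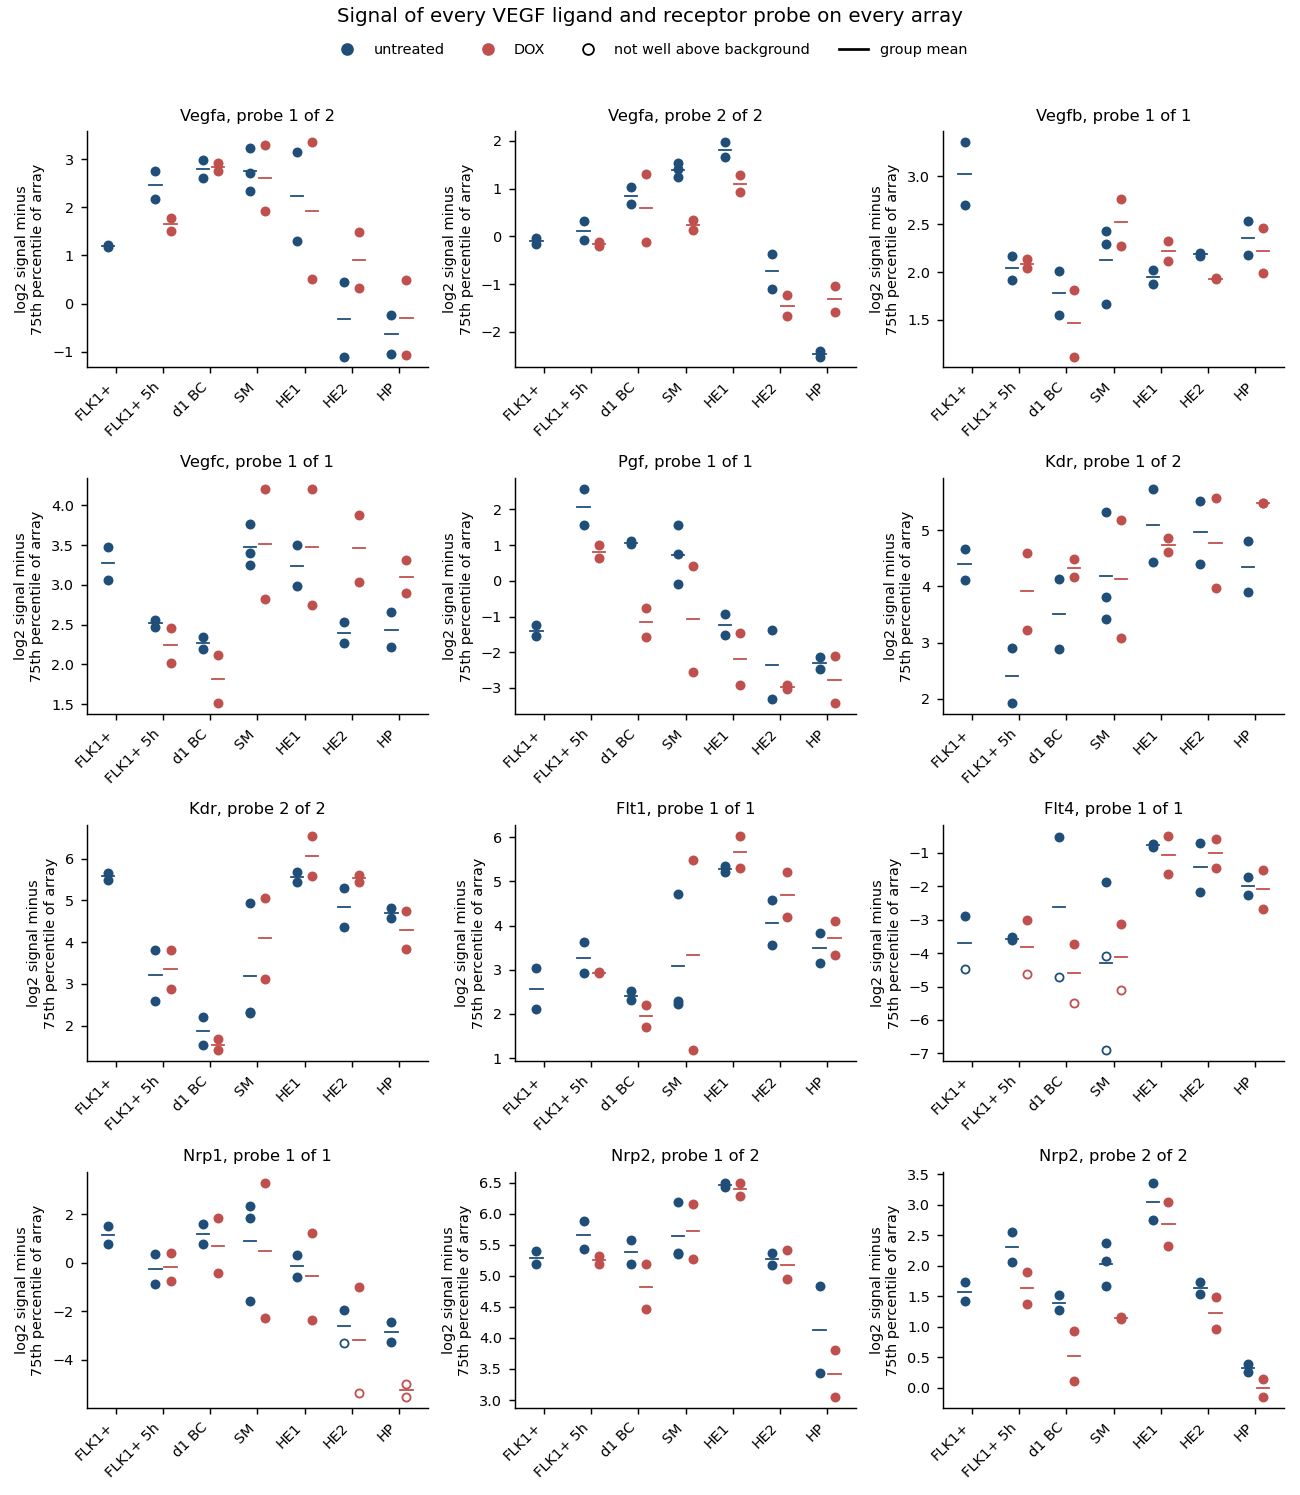
Level of each of the 12 probes (y axis, log2 scale, relative to the 75th percentile of each array) in the 7 populations (x axis), untreated in blue and DOX in red, 1 point per array with a bar at the group mean; open points were not well above background. Both Vegfa probes are low in HE2 and HP, Pgf is highest in FLK1+ 5h, Flt1 and Nrp2 are highest in HE1, and the points of Flt1 and Nrp1 in SM lie far apart.

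Among the ligands, Vegfa, the main growth factor of blood vessels, was lowest in the late hemogenic and progenitor cells. On probe 1 the untreated arrays read 1.17 and 1.22 in FLK1+, 2.76 and 2.16 in FLK1+ 5h, 2.62 and 2.98 in d1 BC, 2.33, 3.24 and 2.70 in SM, 1.30 and 3.15 in HE1, -1.10 and 0.45 in HE2, and -1.04 and -0.24 in HP. Every HE2 and HP array lay below every other untreated array, and FLK1+ lay between them and the rest. The 7 untreated means differed beyond the spread between arrays (F = 6.28, limma adjusted p = 0.00916), with a span of 3.44 on the log2 scale, or 10.8-fold, from d1 BC to HP. From d1 BC down to HE1 neighbours in the order of means overlapped, while HE1 lay above FLK1+ and FLK1+ above HE2 on every array. Across all genes tested, 17.9% differed over the untreated populations, and of the 9 family members Vegfa and Pgf did.

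The second Vegfa probe, drawn on another RefSeq transcript, gave a sharper drop. It read 1.66 and 1.97 in HE1, -0.37 and -1.10 in HE2 and -2.51 and -2.39 in HP. The 3 groups did not overlap, and HP lay lowest of all 13. When every probe was fitted on its own, this probe fell by 2.55 on the log2 scale from HE1 to HE2 (SE 0.49, limma adjusted p = 0.00919) and by 4.27 from HE1 to HP (SE 0.49, 19.3-fold, limma adjusted p = 6.56e-05), where 1.83% and 3.62% of all probes were called. A call is an adjusted p under 0.05 with at least a 2-fold change. Probe 1 differed by -2.55 in HE2 (limma adjusted p = 0.161) and by -2.87 in HP (SE 0.85, 7.29-fold, limma adjusted p = 0.0653), which did not pass. With slide as a fixed block both differences of probe 1 were called at the same size (limma adjusted p = 0.00454 and 0.00139), and with the replicate number as a block that of HP was (limma adjusted p = 0.0192). Over 44 alternatives, probe 1 was called in 6 for HE2 and in 12 for HP. Within each slide, probe 1 was lower in HP than in HE1 by 2.35 and by 3.39. The HE1 to HP fall of probe 2 was called under all 14 settings run on it, and the HE1 to HE2 fall lost its call without HE1 replicate 1 or 2 or HE2 replicate 2 (limma adjusted p from 0.0790 to 0.0965). The probes correlated with r = 0.734 over the 27 arrays.

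Pgf, the placenta growth factor that binds FLT1 alone among the VEGF receptor kinases, was high shortly after FLK1+ cells were put into blast culture. It read -1.24 and -1.56 in FLK1+ and 2.58 and 1.56 in FLK1+ 5h. Both 5 h arrays were above every FLK1+ array, as for 25.8% of all genes, and the rise was 3.47 on the log2 scale (SE 0.84, 11.1-fold, limma adjusted p = 0.0315). In this comparison 2.84% of all genes were called and Pgf was the called member of the 9, while 3 of the 9 and 15.0% of all genes had an unadjusted limma p under 0.05. It was 1.02 and 1.11 in d1 BC and 0.75, -0.10 and 1.56 in SM, then -0.93 and -1.52 in HE1, -1.39 and -3.30 in HE2 and -2.15 and -2.46 in HP. FLK1+ 5h stood above d1 BC and SM above HE1 on every array, and the 7 untreated means spanned 4.41 on the log2 scale, or 21.3-fold, from FLK1+ 5h to HE2 (F = 9.07, limma adjusted p = 0.00157). Markers also moved from FLK1+ to FLK1+ 5h: 6 of 6 tested smooth muscle markers were higher, with a median of 2.05 beside -0.18 over all genes and with Acta2 called, and of 4 fibroblast markers Pdgfra was called lower. Their part in the Pgf difference was not tested. The 5 h rise rested on few arrays: FLK1+ 5h replicate 1 lay alone on its slide, and without it the difference was 2.96 (limma adjusted p = 0.400). It was 3.31 without FLK1+ replicate 2 and 3.63 without FLK1+ replicate 1 (limma adjusted p = 0.149 and 0.148). On the slide that held the other 5 h array and both FLK1+ arrays the difference was 2.96 (limma adjusted p = 0.0600 with slide as a block).

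Vegfb and Vegfc moved least. Vegfb, a ligand of FLT1, read 3.36 and 2.70 in FLK1+, above all other untreated arrays, whose range was 1.55 to 2.53. The difference from FLK1+ to FLK1+ 5h was -0.99 (SE 0.44, limma adjusted p = 0.299). Vegfc, the ligand of FLT4, was higher in FLK1+ (3.06 and 3.48), SM (3.26, 3.77 and 3.40) and HE1 (2.98 and 3.50) than in d1 BC (2.35 and 2.20). Every SM and HE1 array lay above every d1 BC array, as for 13.5% and 29.8% of all genes, and the differences were 1.20 (SE 0.50, limma adjusted p = 0.712) and 0.97 (SE 0.55, limma adjusted p = 0.379). Their untreated means spanned 2.38-fold and 2.30-fold, and neither passed the test over populations (limma adjusted p = 0.345 and 0.284).

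Among the receptor kinases, Kdr gave different accounts by probe. Probe 2, printed in 10 spots, read 5.50 and 5.67 in FLK1+, 2.60 and 3.82 in FLK1+ 5h, 1.53 and 2.21 in d1 BC, 2.32, 4.94 and 2.31 in SM, 5.68 and 5.45 in HE1, 4.37 and 5.31 in HE2 and 4.82 and 4.57 in HP. It was lowest in d1 BC, on every array below every other untreated array, and the SM array at 4.94 was replicate 2. From d1 BC to HE1 it rose by 3.70 on the log2 scale (SE 0.80, limma adjusted p = 0.0169), a comparison in which 2.63% of all probes were called. The call was lost without d1 BC replicate 1 or 2 or HE1 replicate 1 or 2 (limma adjusted p from 0.0876 to 0.146) and with slide as a block (2.01, limma adjusted p = 0.399), where no slide held both groups. Probe 1 read 4.13 and 2.88 in d1 BC and 4.44 and 5.74 in HE1. Those groups did not overlap either, but the difference was 1.58 (SE 0.82, limma adjusted p = 0.346 in the fit of every probe). From FLK1+ to FLK1+ 5h both probes were lower on every array, as were 33.4% of all genes, by -1.98 on probe 1 and -2.37 on probe 2 (limma adjusted p = 0.249 and 0.134), which did not pass. The FLK1+ cells had been selected for this receptor. The Kdr probes correlated with r = 0.493 over the 27 arrays, the lowest of the 3 pairs.

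**Figure D2:**
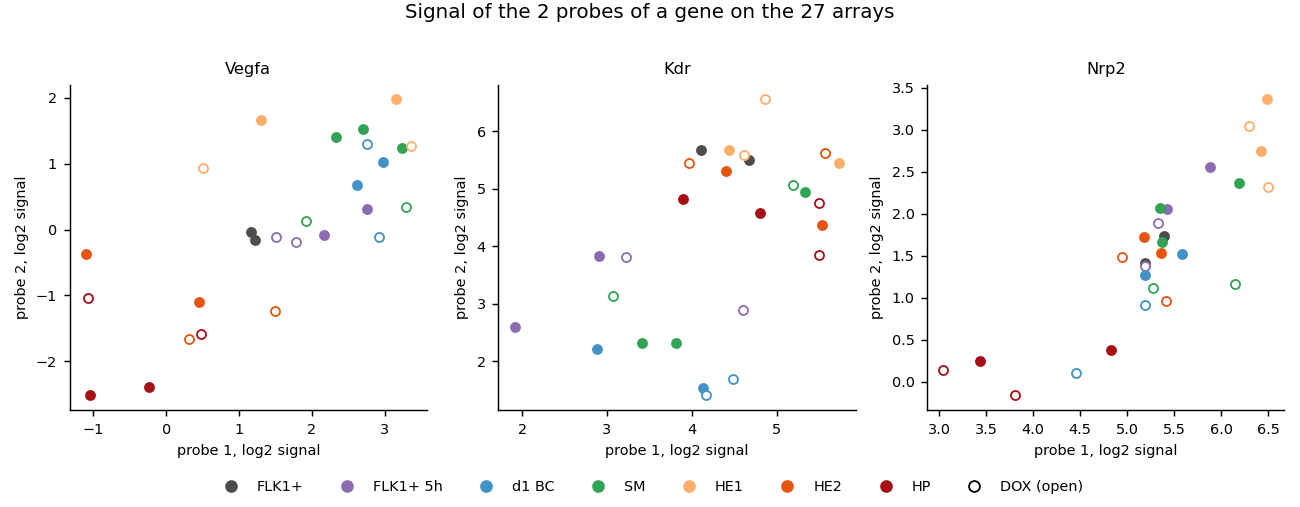
Log2 signal of probe 1 (x axis) against probe 2 (y axis) of Vegfa, Kdr and Nrp2 on the 27 arrays, coloured by population, with DOX arrays open. Nrp2 (r = 0.847) and Vegfa (r = 0.734) lie along a rising band, while for Kdr (r = 0.493) the d1 BC arrays read low on probe 2 over a range of probe 1.

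Flt1, the receptor that binds VEGFA without strong signalling, was highest in HE1. It read 3.03 and 2.10 in FLK1+, 3.62 and 2.93 in FLK1+ 5h, 2.31 and 2.52 in d1 BC, 2.23, 4.71 and 2.30 in SM, 5.35 and 5.20 in HE1, 3.55 and 4.58 in HE2 and 3.16 and 3.83 in HP. Both HE1 arrays were above all other untreated arrays, and SM replicate 2, at 4.71, came next. The difference from d1 BC to HE1 was 2.86 (SE 1.00, limma adjusted p = 0.139) and that from SM to HE1 was 2.19 (SE 0.91, limma adjusted p = 0.425), neither of which passed. Without SM replicate 2 and SM DOX replicate 2, an alternative chosen after seeing the data, they were 2.86 (limma adjusted p = 0.00423) and 3.01 (limma adjusted p = 0.00392), and both were called. The difference from d1 BC was also called when either SM DOX array was left out alone (limma adjusted p = 0.0316). HE1 minus SM was 3.04 on one slide and 0.49 on the slide of SM replicate 2. Over 44 alternatives the difference from d1 BC was called in 5 and ranged from 0.54 to 3.27. No slide held both HE1 and d1 BC. The difference from SM was called in 1 of 44 and ranged from 1.41 to 3.01.

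Flt4, the receptor of VEGFC, was weak: untreated levels ran from -6.91 to -0.52, and it was not well above background on 1 FLK1+, 1 d1 BC and 2 SM arrays. It read -0.74 and -0.81 in HE1, -2.16 and -0.70 in HE2 and -1.72 and -2.25 in HP, against -6.91, -1.87 and -4.07 in SM. HE1 lay above every SM array, as for 10.5% of all genes, but 1 of 3 SM arrays, replicate 2, measured Flt4. The fitted difference of 3.50 (SE 1.22, limma adjusted p = 0.251) thus rests in part on SM signals that were not well above background. When arrays were left out in turn, SM without replicate 2 gave only a bound, with Flt4 at least 12.7-fold higher in HE1 (limma adjusted p = 0.0374 from SM signals not well above background). Flt4 was called here in 3 of 44 alternatives. The comparison of SM with d1 BC was not tested, since neither group was measured on all its arrays.

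Of the coreceptors, Nrp2, which binds VEGFC and VEGFA with class 3 semaphorins, was called between untreated populations. Probe 1 read 6.49 and 6.43 in HE1, 5.18 and 5.36 in HE2 and 3.43 and 4.83 in HP. The other untreated arrays lay between 5.19 and 6.19, so that HE1 was above and HP below all of them. From HE1 to HP it fell by 2.33 on the log2 scale (SE 0.53, 5.02-fold, limma adjusted p = 0.0135), where 4.22% of all genes were called. Probe 2 read 3.36 and 2.74 in HE1 and 0.25 and 0.39 in HP, and fell by 2.73 (SE 0.48, 6.66-fold, limma adjusted p = 0.00227). The fall of probe 1 was 3.06 on one slide and 1.60 on the other, where it was measured within slides. It was -1.63 without HP replicate 1 (limma adjusted p = 0.283), and without HE1 replicate 1 or 2 the call was lost (limma adjusted p = 0.0792 and 0.0745). Scaling arrays by their medians gave -1.72 (limma adjusted p = 0.179) on probe 1 and -2.13 (limma adjusted p = 0.0617) on probe 2.

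Nrp1, the coreceptor of VEGFA and semaphorin 3A, read 0.77 and 1.61 in d1 BC, 2.35, -1.56 and 1.82 in SM, 0.30 and -0.58 in HE1, -3.28 and -1.93 in HE2 and -2.44 and -3.24 in HP. Every HE2 and HP array was below all other untreated arrays, and the SM array at -1.56 was again replicate 2. Of the HE2 arrays, 1 of 2 was well above background. The difference from HE1 to HP was -2.70 (SE 1.63, limma adjusted p = 0.531) and the test over populations gave an adjusted p of 0.211 (limma). The untreated means spanned 4.03 on the log2 scale, or 16.3-fold, from d1 BC to HP. Among the spans on probe 1, only that of Pgf was wider in the family. Vegfa probe 2 also fell further, by 19.3-fold from HE1 to HP. The standard error of Nrp1 was the widest in these comparisons.

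**Figure D3:**
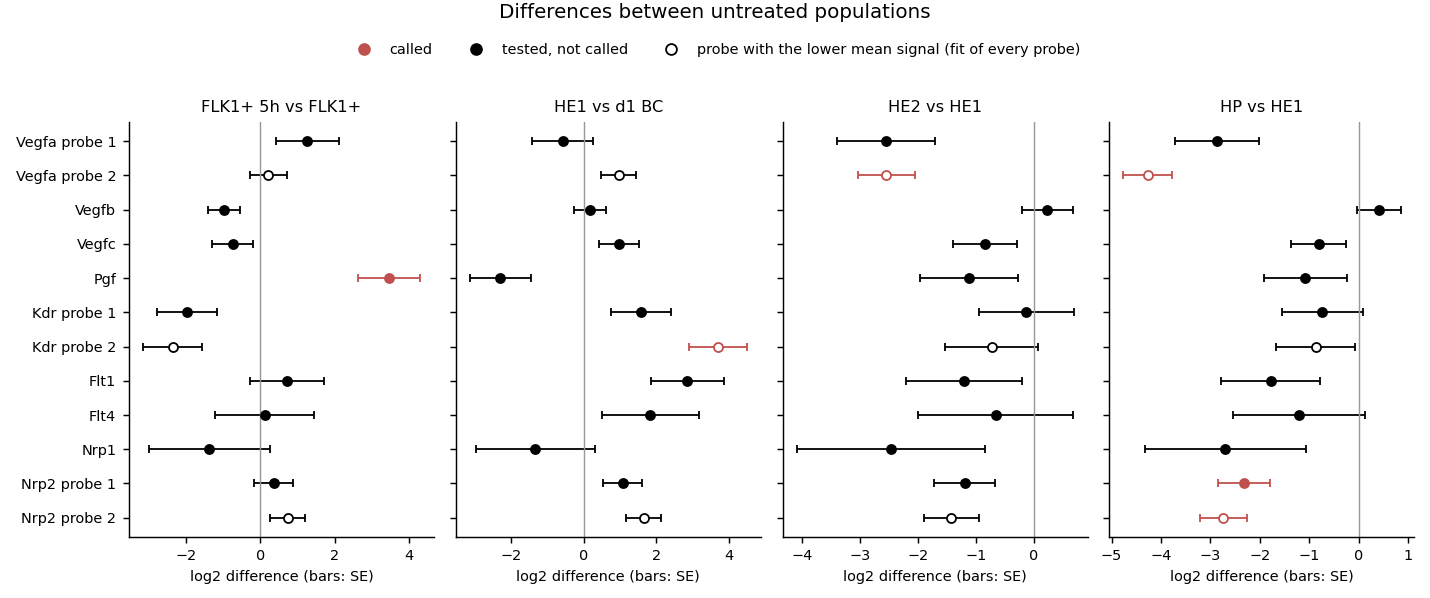
Difference in log2 level (x axis, bars are SE) of each probe in 4 comparisons of untreated populations, with called differences in red and the probe of lower mean signal, from the fit of every probe, drawn open. Pgf stands alone on the right for FLK1+ 5h against FLK1+, and for HP against HE1 all probes but that of Vegfb lie below 0.

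Counted by step, members were most often lower in HE2 and HP than in HE1, and few passed the test. From d1 BC to HE1, 4 of the 9 genes (Vegfc, Kdr, Flt1 and Nrp2) were higher on every array and 2 (Pgf and Nrp1) lower, with a median difference of 0.97 beside 0.05 over all genes, and 29.8% of all genes were higher on every array and 30.0% lower. From HE1 to HE2, 5 were lower on every array (Vegfa, Vegfc, Flt1, Nrp1 and Nrp2) and 1, Vegfb, higher, with a median of -1.12 beside 0.04, and 16.1% of all genes were lower and 16.0% higher on every array. From HE1 to HP, 7 were lower on every array, Vegfb was higher and probe 1 of Kdr overlapped, with a median of -1.21 beside 0.03, against 24.1% of all genes lower and 26.2% higher on every array. These counts use probe 1. On probe 2, Kdr was lower on every array in HE2 (-0.72) and in HP (-0.87) than in HE1 (limma adjusted p = 1.00 and 0.728), and Vegfa was higher on every array in HE1 than in d1 BC, where its probe 1 overlapped. With 1 probe per gene, 0 of 9 members were called from d1 BC to HE1 and 0 from HE1 to HE2 (2 each at an unadjusted limma p under 0.05, as were 17.0% and 9.42% of all genes), where 3.13% and 2.34% of all genes were called. In HP against HE1 1 member, Nrp2, was called (2 at an unadjusted p under 0.05, as were 13.6% of all genes). In d1 BC against FLK1+ 5h, SM against d1 BC, HE1 against SM and HP against HE2 limma called 0 members (0, 1, 3 and 1 at an unadjusted p under 0.05, as were 10.6%, 5.88%, 8.62% and 6.05% of all genes), and 1.44%, 0.251%, 0.568% and 0.00394% of all genes. Markers of several cell types moved with these steps. From d1 BC to HE1, 8 of 8 endothelial markers were higher (median 5.09) and 7 of 7 smooth muscle markers lower (median -1.84). Called were 3 of each list, among them Emcn and Cldn5. Of 4 fibroblast markers 2 were higher and 2 lower, and Col1a2 was called higher. From HE1 to HE2, 0 of 8 endothelial markers were called by limma (0 at an unadjusted p under 0.05), while 4 of 8 hematopoietic markers were called higher. Called lower were 2 of 6 tested smooth muscle markers (Cald1 and Acta2) and 2 of 4 fibroblast markers (Col1a2 and Pdgfra). The medians of these lists were -0.83, 3.53, -2.86 and -3.37 on the log2 scale. From HE1 to HP, 5 of 8 hematopoietic markers were called higher, and 2 of 8 endothelial (Emcn and Cldn5), 1 of 6 smooth muscle (Cald1) and 2 of 4 fibroblast markers were called lower, with list medians of 4.80, -2.38, -1.51 and -2.09. The part that the makeup of the sorted cells had in the family's differences was not tested.

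DOX changed no member past the threshold. In all 6 populations limma called 0 of the 9 genes, or of those tested, since Flt4 was not tested in d1 BC and SM nor Nrp1 in HE2. At an unadjusted limma p under 0.05 Pgf passed on 1 probe per gene, in d1 BC and in SM, where 1.44% and 2.60% of all genes did. The second probe of Vegfa also passed, in SM and in HP, in the fit of every probe. Few genes of the whole array were called either, with 0.0398% in HP, 0.00839% for the SM cells, 0.00420% after 5 h, and 0% each for HE1, HE2 and d1 BC. Hprt itself, at the locus of the cassette, was called in SM alone (3.50, limma adjusted p = 0.0338). In the other populations it rose by 1.41 to 3.62 without a call (limma adjusted p from 0.108 to 0.989). A missing call with DOX thus does not show that a gene was unchanged. The median of all genes shifted by 0.13 in d1 BC, 0.17 in HE2 and 0.25 in HP with DOX under this scaling.

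Pgf was the member with the lowest p over the 6 populations together. With DOX it read 0.63 and 1.02 in FLK1+ 5h, -1.56 and -0.77 in d1 BC, 0.41 and -2.54 in SM, -1.47 and -2.92 in HE1, -3.02 and -2.92 in HE2 and -2.10 and -3.43 in HP. The DOX arrays lay below all untreated arrays in FLK1+ 5h and d1 BC, as those of 16.4% and 9.89% of all genes did, and overlapped them in the other 4 populations. The differences were -1.25, -2.23, -1.80, -0.96, -0.63 and -0.46 on the log2 scale in that order of populations. On the slide that held both an untreated and a DOX array of FLK1+ 5h, the difference was -0.55. Their mean was -1.22 (SE 0.34, unadjusted p = 0.00194, limma adjusted p = 0.229), so that Pgf did not pass where 0.173% of all genes did, and it was lower in 6 of 6 populations, as were 5.39% of all genes. On a shared slide it was lower in 9 of 11 pairs of arrays, as was Nrp2, and 4.85% of all genes were lower in 9 or more. With slide as a random block (-1.17, limma adjusted p = 0.0402) and without SM DOX replicate 1 (-1.47, limma adjusted p = 0.0401) it did pass. In SM the low array, at -2.54, was SM DOX replicate 2, which carried the endothelial markers named above. Within slides the SM difference was -0.33 on the slide of SM DOX replicate 1 and -2.44 on that of SM DOX replicate 2. The mean over populations was -0.98 without SM DOX replicate 2 (limma adjusted p = 0.395) and -1.05 without SM replicate 2 as well (limma adjusted p = 0.238). Smooth muscle markers were lower with DOX too. Their mean level was 3.13 and 3.14 on the SM DOX arrays, below the 3.98 to 4.06 of the 3 untreated ones, and 6 of 7 were lower in SM (median -0.73 beside 0.09 over all genes) and in the mean over populations (median -0.39 beside 0.14), with 0 called by limma (1 and 2 at an unadjusted p under 0.05). The part of either marker list in the Pgf differences was not tested.

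On probe 1 the other mean differences with DOX were smaller against their errors. Kdr stood at 0.48 (SE 0.33, limma adjusted p = 0.703), Nrp1 at -0.70 (SE 0.66, limma adjusted p = 0.738) and Nrp2 at -0.29 (SE 0.21, limma adjusted p = 0.708), and those of Vegfa, Vegfb, Vegfc, Flt1 and Flt4 lay between -0.34 and 0.21. Nrp2 probe 2 was lower with DOX in 6 of 6 populations, as were 5.39% of all genes, with differences of -0.68, -0.88, -0.89, -0.37, -0.41 and -0.33 in the order given for Pgf. Its DOX arrays lay below all untreated arrays in 5 of them and overlapped in HE1. Of all genes 16.4%, 9.89%, 6.07%, 14.3% and 12.5% were lower on every array in FLK1+ 5h, d1 BC, SM, HE2 and HP. The mean was -0.59 (SE 0.19, limma adjusted p = 0.445 in the fit of every probe), which did not pass. Kdr probe 1 was higher on every DOX array in FLK1+ 5h, d1 BC and HP, by 1.50, 0.82 and 1.14, as were 18.7%, 18.4% and 25.7% of all genes, where probe 2 gave 0.13, -0.32 and -0.40 and overlapped. Vegfa probe 2 read 0.14 and 0.35 in SM with DOX against 1.41, 1.24 and 1.53 without, a difference of -1.15 that did not pass (limma adjusted p = 0.999), while in HP it differed by 1.14 in the other direction (limma adjusted p = 1.00). Over the 6 populations Vegfa probe 2 was lower with DOX in 5, with a mean of -0.33 (SE 0.20, limma adjusted p = 0.704 in the fit of every probe), which did not pass. In 4 of them (FLK1+ 5h, SM, HE1 and HE2) it was lower on every array, as were 16.4%, 6.07%, 8.33% and 14.3% of all genes. Nrp1 was not well above background on either HP DOX array (-4.97 and -5.53), at least 3.24-fold lower than in untreated HP, with a limma adjusted p of 0.999 that rests on those HP DOX signals. No member had a DOX effect that differed between populations (0 of 9 and 0% of all genes by limma's interaction test, and 0 of 9 and 1.85% of all genes at an unadjusted p under 0.05).

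**Figure D4:**
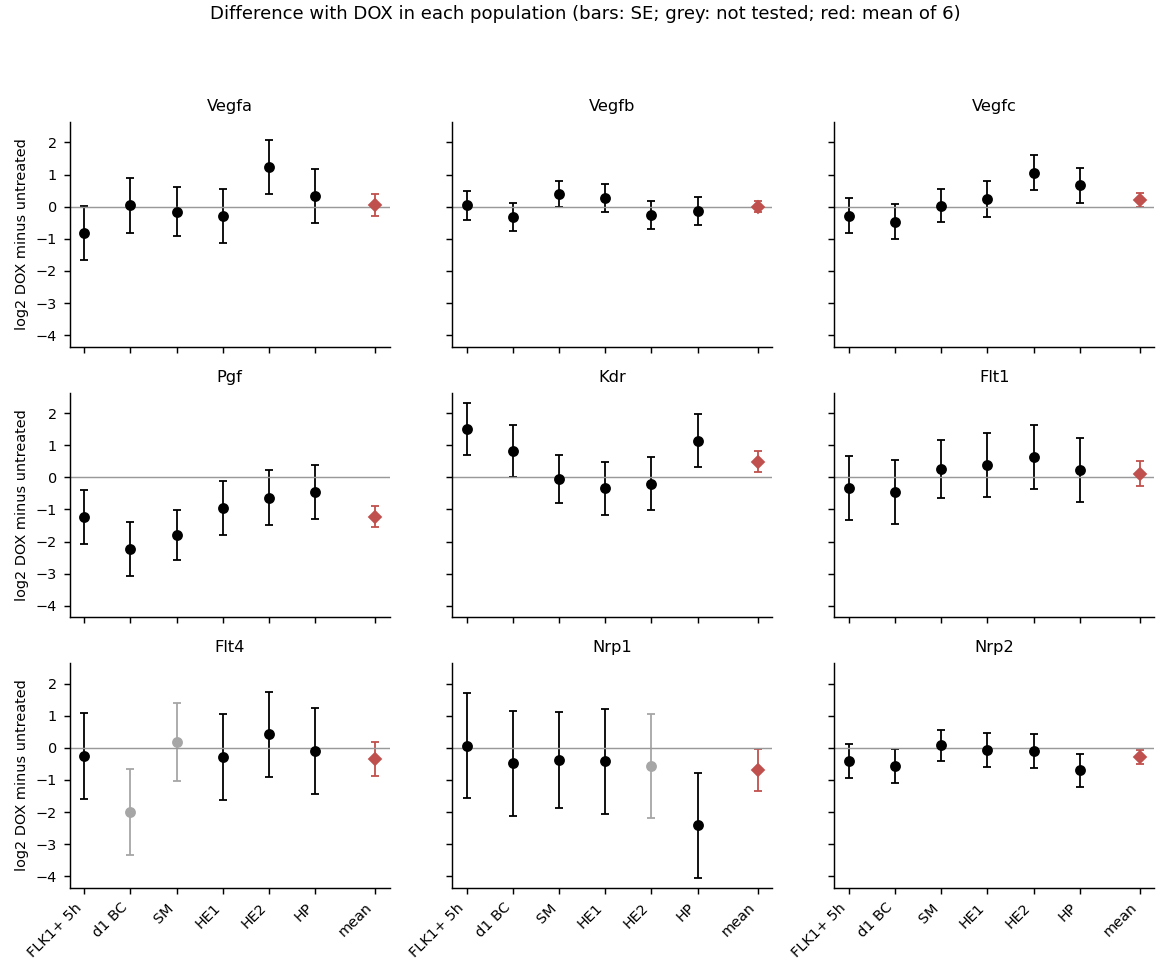
Log2 difference of DOX minus untreated (y axis, bars are SE) for probe 1 of each member in the 6 populations and as their mean (red diamond), with untested differences in grey. Pgf lies below 0 in all 6 populations, with a mean of -1.22, and the bars of the other members' means reach or come close to 0.

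Genes around the family were read from a list of 64 (partners, signalling, genes induced by VEGF and upstream factors), all of them on the array. With DOX, limma called 0 of them in any population, and at an unadjusted p under 0.05 there were 9 of 57 tested in HE2, 4 of 60 in SM, 3 of 59 in HP, 3 of 60 in HE1, 2 of 62 in d1 BC and 1 of 62 in FLK1+ 5h. Of all genes 8.91%, 2.60%, 3.51%, 1.14%, 1.44% and 5.02% passed in that order. In HE2 42 of the 57 were higher with DOX and 15 lower, with a median of 0.68 beside 0.17 over all genes, and in the other populations the median lay between -0.19 and 0.18. In the counts of this list between untreated populations, genes that rose, fell or changed are those called. From FLK1+ to FLK1+ 5h 2 of 62 tested rose and 0 fell, where 2.84% of all genes were called. One was Nfatc2, a factor that calcium signals switch on (3.87 on the log2 scale, limma adjusted p = 0.0120, and 0.0726 with slide as a block). The other was Sema3c, a semaphorin that binds neuropilins, at least 3.72-fold higher since no FLK1+ array measured it. Its call (limma adjusted p = 0.00883) thus rests on FLK1+ signals that were not well above background. From FLK1+ 5h to d1 BC 1 of 63 changed, beside 1.44% of all genes: Etv2, the ETS factor that sets up blood and endothelial fate, fell by 4.18 (limma adjusted p = 0.0118). From d1 BC to SM 1 of 61 rose, beside 0.251% of all genes called, the immediate early gene Egr1 (2.22, limma adjusted p = 0.0440), whose call was lost with replicate number or slide as a block and without SM replicate 2 (limma adjusted p = 0.149, 0.121 and 0.0706). Its difference was 2.27 with slide as a block and 2.30 without that array.

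From d1 BC to HE1, where 3.13% of all genes were called, 5 of 62 rose and 0 fell, led by Nos3, the endothelial nitric oxide synthase (5.91, limma adjusted p = 0.0171), and by Erg, an endothelial ETS factor (5.03, limma adjusted p = 0.0229). With slide as a block, where no slide held both groups, all 5 lost their calls (limma adjusted p from 0.0509 to 0.539). The differences of Nos3 and Erg dropped to 2.62 and 2.19, that of Plxnd1 went from 4.32 to 2.77, and those of Angpt2 (2.18 to 2.60) and Pik3r1 (2.04 to 2.43) grew. The median of the 62 was 0.66 beside 0.05 over all genes. Against SM, with 0.568% of all genes called, 1 of 61 rose in HE1, Plxnd1, a semaphorin receptor (4.01, limma adjusted p = 0.0476). It lost this call with the replicate number as a block (limma adjusted p = 0.183) and kept it without SM replicate 2 (4.83, limma adjusted p = 0.00659). From HE1 to HE2, with 2.34% of all genes called, 2 of 60 rose and 6 fell, with a median of -0.35 beside 0.04. Those with the largest rise and fall were Itgb3, an integrin chain that binds KDR and is carried by megakaryocytes (4.97, limma adjusted p = 0.00269), and Foxc2, a forkhead factor of vessels, which fell by 5.44 (limma adjusted p = 0.0135). Foxc2 was well above background on 1 of 2 arrays each of HE2 and HP, so its falls rest in part on signals that were not. From HE2 to HP 0 of 59 were called (4 at an unadjusted limma p under 0.05), beside 0.00394% of all genes (6.05%). From HE1 to HP, with 4.22% of all genes called, 2 of 63 rose and 7 fell, with a median of -0.27 beside 0.03. Itgb3 rose by 5.75 (limma adjusted p = 0.000330) and Prkca, a kinase downstream of KDR, by 3.35 (limma adjusted p = 0.0166), while Foxc2 fell by 6.35 (limma adjusted p = 0.00250) and Ptprb, the phosphatase of endothelial receptors, fell by 5.27 (limma adjusted p = 0.0315). Over the 7 untreated populations 26 of the 64 differed, beside 17.9% of all genes.

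Likeness was measured as Pearson's r over the 13 group means of probe 1, which share arrays among members, among 16390 genes with a symbol that were measured throughout at least 1 group. The genes most like Vegfa were Akap12 (r = 0.982), Tlcd5 (0.972) and Mcc (0.970), and those most like Pgf were Eppk1 (0.975), Stmn4 (0.964) and Fam83g (0.960). Kdr was most like Acox3 (0.976), Clpsl2 (0.974) and Slc9a2 (0.973), Flt1 like Nfatc1 (0.979), Gngt2 (0.975) and Robo4 (0.973), and Flt4 like Plxnd1 (0.936), Zfp69 (0.935) and Csgalnact1 (0.932). Nrp1 was most like Hmgn3 (0.974), Ext1 (0.974) and Cpt1c (0.970), and Nrp2 like Lama4 (0.954), Adcy6 (0.944) and Nrep (0.941). For Vegfb the best were Ypel3 (0.837), Ccdc103 (0.830) and Spata24 (0.825), and for Vegfc Chac1 (0.882), Tmem67 (0.881) and Pcdhb16 (0.875), lower than for any other member. Within the family the closest pairs were Flt1 with Flt4 (0.840) and Vegfa with Nrp1 (0.840), and Pgf and Kdr ran most opposite (-0.853). Kdr probe 2 gave -0.639 against Pgf and was closest to Flt1 (0.787).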

How the data were processed

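RNA of 27 samples was measured on 1-colour Agilent mouse arrays. The deposited spot signal is an intensity that the authors obtained with Feature Extraction (10.7.3.1 per the file headers), background-subtracted and detrended within each array, with no scaling across arrays. The deposited value table is on a log2 scale, with a normalization between arrays that the sources used here do not give, and served as an alternative. The 62976 spots held 55681 probes besides controls, of which 26582 got a symbol from RefSeq (GRCm38.p6). Spots of a probe were averaged without outliers, taken to log2 and reduced by the 75th percentile of the array. For each of 37208 genes or transcripts the probe with the highest mean was kept, and every probe was also fitted on its own. Testing required a probe well above background throughout 1 or more of the groups compared. Group means (13) came from lmFit with eBayes (limma 3.58.1, R 4.3.3; 14 residual and 4.49 prior degrees of freedom, data.table, version 1.17.8). A call needs a 2-fold change or more and an adjusted p (Benjamini-Hochberg) under 0.05, or the adjusted p alone for the tests over all populations. The model was tested on simulated data. Promoters and figures were handled with pandas 2.3.3 and matplotlib 3.10.9 in Python 3.11.15.

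The members and gene lists were chosen with earlier results of these data known. Named are all 9 members, the 3 genes most like each, and at most the 2 largest rises and falls of a list. Alternatives were normexp (offset 50), quantile and median scaling, the authors' values, no filter, other probe rules, slide, scan day and replicate blocks, fits of 2 groups alone and leaving out arrays. No array was a copy of another (0 identical pairs). Signal over background and the 2 or 3 arrays per group limit precision. Arrays lay on 5 slides scanned on 4 days. Where 1 group was nowhere above background, its fold is a bound: the mean of the brighter group against, per array, the higher of the lowest signal among probes well above background and the signal of the probe itself. Replicate numbers were not taken as pairs, since no label ties them to a shared culture. Deviations of same-numbered arrays correlated from -0.42 to 0.83. They correlated over 0.1 for both numbers in 8 of 14 comparisons (DOX in all populations but FLK1+ 5h, and those among HE1, HE2 and HP), and in all 8 the same-numbered arrays also shared a slide.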

Additional observations from a re-analysis of the deposited data

How the results depend on the processing

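With DOX the count of called family members was 0 under every alternative run, as were that of the 64 pathway genes and that of members whose DOX effect differed between populations. The count of members called between untreated populations, 2 in the report, was 5 after quantile normalization, 6 on the authors' values, 4 with the mean of all probes and with every probe on its own, 1 under median scaling, 1 with no filter, 1 in fits of 2 groups alone, and 1 to 3 when arrays were left out in turn. Without SM replicate 2 and SM DOX replicate 2, chosen after seeing the data, it was 4. The members that varied over the untreated populations, 2 in the report, numbered 5 after quantile normalization, 6 on the authors' values, 4 with the mean of all probes, with every probe and without both SM arrays. Vegfa and Pgf varied in all 43 settings. The count with a mean DOX effect went from 0 to 1 (Pgf) with slide as a random block and without SM DOX replicate 1, so that leaving out arrays in turn gave 0 to 1. Pathway genes called between untreated populations, 18 different genes by the fit of the report, numbered 11 in fits of 2 groups alone and 9 to 21 when arrays were left out in turn, lowest without HE1 replicate 1 or 2, 22 without both SM arrays, and 13 to 26 under the other settings, highest after quantile normalization. The Pgf rise at 5 h ranged from 2.96 to 3.97 and lost its call with no filter (adjusted p = 0.0514), with slide (0.0600) or scan day (0.0709) as a fixed block and without either FLK1+ array or FLK1+ 5h replicate 1. The Nrp2 fall in HP ranged from -3.03 to -1.63 and lost its call under median scaling, in the fit of 2 groups alone (adjusted p = 0.149) and without either HE1 array or HP replicate 1. Of mean DOX effects near 0, that of Vegfa turned to -0.066 with normexp, -0.031 with quantile normalization, -0.13 on the authors' values, -0.13 with the mean of all probes and -0.016 without both SM arrays, and ranged from -0.18 to 0.30 over arrays left out in turn. That of Vegfb turned to -0.10 with quantile normalization, -0.071 on the authors' values, -0.020 with slide as a fixed and -0.010 as a random block, and ranged from -0.057 to 0.059 over arrays left out. That of Flt1 turned to -0.072 with quantile normalization and -0.11 without both SM arrays, and ranged from -0.24 to 0.48, and that of Flt4 ranged from -0.69 to 0.010. With replicate numbers as a block, Pgf kept 3.47 (limma adjusted p = 0.0153) and Nrp2 -2.33 (limma adjusted p = 0.0121), Vegfa was added in HP against HE1 (-2.87, limma adjusted p = 0.0192), no other member call changed, and over all genes calls went from 58 to 16 in SM against d1 BC and from 133 to 0 in HE1 against SM. With the FLK1+ numbers crossed, chosen after seeing the data, FLK1+ 5h against FLK1+ called 827 genes, against 722 with the block as numbered and 643 without it. The causes of these changes were not tested. Vegfa and Nrp2 probe 2 lost a call under median scaling in HE2 (-2.36, adjusted p = 0.121) and HP (-2.13, adjusted p = 0.0617).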
